A study of Mus musculus with 12 samples.

Results

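Genes of macrophages and of MHC class II antigen presentation were followed in mouse dorsal root ganglion (DRG) RNA, the RNA of the ganglia that house the cell bodies of sensory neurons. The 10 genes were chosen by symbol, as rows of the deposited count table whose Ensembl identifier maps to C1qa, C1qb, C1qc, Csf1r, Cd74, H2-Aa, H2-Ab1, Lyz2, Ctss or Tyrobp. All 10 had a row, of 14675 gene identifiers in all. The mice of every group had the genotype RPL22HA+/+;Advillin-Cre+. In this RiboTag design, Cre recombinase under the Advillin promoter, active in peripheral sensory neurons, attaches an HA tag to the ribosomal protein RPL22. An anti-HA pull-down then recovers RNA on tagged ribosomes (IP), while input is the RNA of the whole lysate, including cells that carry no tag. The 4 groups were IP from AAV-shGpr151 and AAV-e5'UTR, IP from AAV-shGpr151, input from AAV-shGpr151 and AAV-e5'UTR, and input from AAV-shGpr151, with 3 columns each. Every group thus received an adeno-associated virus with a short hairpin RNA against Gpr151, and no group without that hairpin was analysed here. The labels name the e5'UTR insert without describing it, and they give no age beyond the word adult, which all groups share. Which material was sequenced is unclear: the series' design text has sensory neurons put in culture after a sciatic lesion, while the extraction protocol has ganglia lysed fresh.

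The 3 columns of a group had nearly equal totals, within 0.201% of each other's mean in every group, and differed gene by gene little more than counting error does. The median chi-square statistic over genes was 1.08 to 1.12 times the median that counting error alone gives. They were therefore counted as 1 sample per group, called a pool, and every p-value here measures only the spread between such columns and compares these libraries, not the conditions. Column totals were 1514948 to 1517685 counts for IP with e5'UTR and 1381220 to 1382261 for IP without it, against 975403 to 977366 for input with e5'UTR and 984118 to 985277 for input without it. All groups were labelled as adult DRG neuron. Avil, the gene whose promoter drives Cre, had 1103 counts in the IP pools and 103 in the input pools, and Gpr151 itself had 128 and 108 counts in the IP pools against 29 and 35 in the input pools. Hemoglobin genes, which mark red blood cells, summed to 32 counts in the IP pools and 9958 in the input pools, an IP over input ratio of 0.00117 (95% interval 0.0008 to 0.00165). In bulk RNA, fewer cells of a type and less RNA per cell cannot be told apart.

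Macrophages are resident immune cells of the ganglion that take up debris and respond to nerve injury. H2-Aa and H2-Ab1 encode the alpha and beta chains of the class II molecule I-A, which shows peptides to helper T cells, and Cd74 encodes the invariant chain that guards their groove until they reach the endosome. C1qa, C1qb and C1qc encode the chains of C1q, the recognition part of the classical complement pathway, which in tissues is made largely by macrophages. Csf1r encodes the receptor for the growth factors CSF1 and IL-34, on which most macrophages depend. Tyrobp encodes DAP12, the signalling adaptor of TREM2 and related receptors. Lyz2 encodes lysozyme, and Ctss encodes cathepsin S, the endosomal protease that trims the invariant chain.

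Short stretches of promoter are shown because these promoters are textbook targets of factors that work in macrophages and antigen-presenting cells. MHC class II promoters carry X and Y boxes, bound by RFX and NF-Y and acted on by the coactivator CIITA, and many myeloid promoters bind the factor PU.1. The RefSeq table of promoters (build GRCm38.p6, from 250 bases before to 50 bases after a gene's start) held 5 of the 10 genes, H2-Aa, C1qb, C1qc, Ctss and Lyz2. It was searched on both strands for ATTGG, the core of the Y box, in H2-Aa, and for GAGGAA, the core of PU.1 sites, in the other 4. The letters overlap no other motif searched, and each window has 30 bases, read 5′ to 3′ on the gene's own strand, with the match in capitals.
H2-Aa: gagaattttctgATTGGttctggcgagttt
C1qb: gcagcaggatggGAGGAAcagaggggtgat
C1qc: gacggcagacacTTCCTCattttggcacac
Ctss: gacacagggttgGAGGAAaactttgtcctg

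The H2-Aa window is chr17:34287854-34287883 on the minus strand, with the match at position −48 from the start site. The C1qb window is chr4:136886213-136886242 on the minus strand (position −30), and the C1qc window chr4:136893090-136893119 on the minus strand (position −193). The Ctss window is chr3:95526610-95526639 on the plus strand (position −164), and Ctss has a second match, in the opposite orientation, at its start site. The Lyz2 promoter held no GAGGAA on either strand. Such letters are common: ATTGG was found in 12289 of 32851 promoters (37.4%) and GAGGAA in 9289 (28.3%), so a match describes the sequence and is not evidence of a site.

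The first comparison, IP against input, asks how far RNA of these genes was found with the tagged ribosomes. On the TMM scale the class II genes were almost absent from IP, the C1q genes were low in IP, Tyrobp and Ctss were moderately lower, Lyz2 was slightly lower, and Csf1r was higher. Levels are given in CPM of the library size as scaled by TMM, edgeR's default, with exact Poisson 95% intervals on the pooled count. Over the 10 genes together, IP held 97.7 CPM (90 to 106) with e5'UTR and 95.4 CPM (87.5 to 104) without it, against 225 CPM (205 to 246) in input with e5'UTR and 213 CPM (194 to 234) in input without it. The summed IP over input ratio was 0.441 (0.404 to 0.481), or 0.819 (0.751 to 0.895) when libraries were scaled by their totals. Intervals cover counting error only, because PCR copies are not independent molecules.

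**Figure D1:**
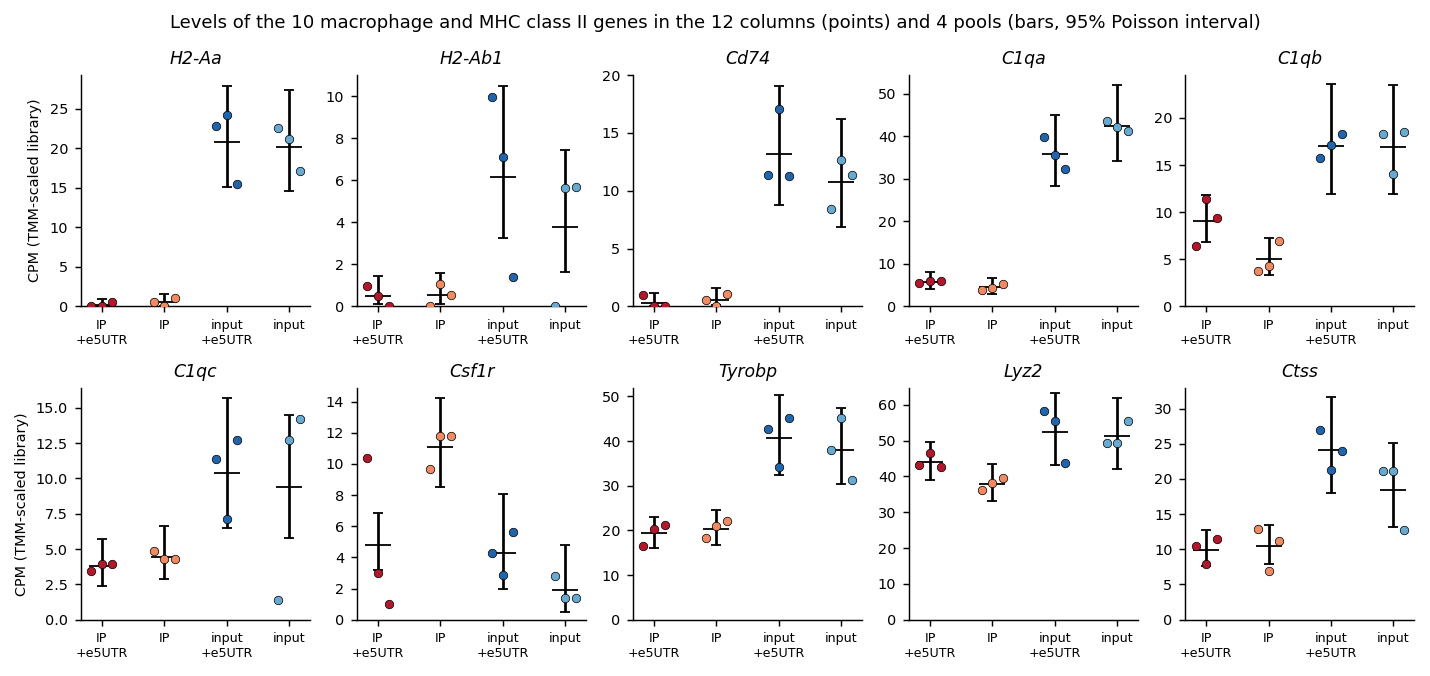
Levels of the 10 genes in CPM of the TMM-scaled library (y axis, own scale per gene, from 0) in the 4 groups (x axis), where points are the 3 columns of a group, horizontal marks the pool and error bars its exact Poisson 95% interval. H2-Aa, H2-Ab1, Cd74 and C1qa are low in both IP pools and high in both input pools, while 1 of the 3 columns of Csf1r in IP with e5'UTR lies far above its neighbours.

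The 3 class II genes showed the lowest IP levels. H2-Aa had 0, 0 and 1 counts in the IP columns with e5'UTR and 1, 0 and 2 counts in the IP columns without it, against 16, 17 and 11 counts in input with e5'UTR and 16, 15 and 12 counts in input without it. Every input column was above every IP column, although the IP columns were the deeper ones. The pooled level of H2-Aa was 0.165 and 0.537 CPM in IP against 20.8 and 20.2 CPM in input, and its log2 ratio was −5.67 ± 0.42 (edgeR, adjusted p = 1.3e-12). Each ± value is an approximate standard error, the size of the log2 ratio over the square root of the test's F statistic. For scarce genes it can be narrower than counting error. The pooled ratio of H2-Aa was 0.0167 (95% exact binomial interval 0.00446 to 0.0444). Cd74 had 2, 0 and 0 counts and then 1, 0 and 2 counts in the IP columns with and without e5'UTR, against 8, 12 and 8 and then 6, 9 and 8 counts in the input columns. Its columns did not overlap between IP and input either, and the pooled ratio was 0.0357 (95% exact binomial interval 0.0111 to 0.0889). H2-Ab1 was the scarcest, with 2, 1 and 0 and then 0, 2 and 1 counts in IP, against 7, 5 and 1 and then 0, 4 and 4 counts in input. Here IP and input columns overlapped, and only the pooled ratio of 0.104 (0.0344 to 0.266) set them apart.

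Together the class II genes had 6 counts in IP with e5'UTR and 9 in IP without it, against 85 in input with e5'UTR and 74 in input without it, so that IP held 3.43% of their input level (1.88% to 5.84%). The pooled counts of each of the 3 genes in IP were at or below 3, the count below which no level can be told from 0 here (0.495 and 0.537 CPM for the IP pools). Cd74 and H2-Ab1 did not pass the filter on low counts and have no test in the analysis across genes. With no filter, the same test gave −4.35 ± 0.49 for Cd74 (adjusted p = 5.3e-10) and −2.81 ± 0.70 for H2-Ab1 (adjusted p = 0.00066).

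The C1q genes were lower in IP as well, C1qa by far more than its partners. C1qa had 11, 12 and 12 counts in IP with e5'UTR and 7, 8 and 10 in IP without it, against 28, 25 and 23 in input with e5'UTR and 31, 30 and 29 in input without it. No IP column reached an input column. C1qa stood at 5.78 CPM (4.02 to 8.04) and 4.47 CPM (2.9 to 6.6) in IP against 35.9 CPM (28.3 to 45) and 42.4 CPM (34.1 to 52.1) in input, a log2 ratio of −2.92 ± 0.18 (adjusted p = 1.2e-14). C1qb had 13, 23 and 19 and then 7, 8 and 13 counts in the IP columns with and without e5'UTR, against 11, 12 and 13 and then 13, 10 and 13 counts in input. At equal scale no IP column reached an input column, with pools at 9.08 and 5.01 CPM in IP against 17 and 16.9 CPM in input (log2 ratio −1.32 ± 0.24, adjusted p = 1.4e-05). C1qc had 7, 8 and 8 and then 9, 8 and 8 counts in IP, against 8, 5 and 9 and then 1, 9 and 10 in input. Its pools stood at 3.8 and 4.47 CPM in IP against 10.4 and 9.41 CPM in input, a log2 ratio of −1.24 ± 0.35 (adjusted p = 0.0022). The lone count in the first column of input without e5'UTR departs from its neighbours, although over the 40 such checks of a gene in a group the departure did not pass (exact multinomial test, p = 0.012, adjusted p = 0.24).

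The pooled IP over input ratio was 0.132 for C1qa (0.0963 to 0.178), 0.42 for C1qb (0.302 to 0.584) and 0.416 for C1qc (0.269 to 0.645). The intervals of C1qb and C1qc overlap almost wholly, and neither overlaps that of C1qa, so that the 3 chains, which make up C1q in equal numbers, did not share 1 ratio. These differences between ratios do not depend on how libraries are scaled, because a scale factor moves all genes of a library alike.

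Csf1r and Tyrobp, the receptor and the adaptor, went opposite ways. Csf1r had 21, 6 and 2 counts in IP with e5'UTR and 18, 22 and 22 counts in IP without it, against 3, 2 and 4 counts in input with e5'UTR and 2, 1 and 1 counts in input without it. On the TMM scale it was the only gene of the 10 higher in IP, with 4.79 and 11.1 CPM in the IP pools against 4.26 and 1.88 CPM in the input pools (log2 ratio 1.33 ± 0.50, adjusted p = 0.018). Its 3 columns of IP with e5'UTR differed more than counting error allows (exact multinomial test, p = 5.1e-05, adjusted p = 0.0021 over 40 checks), which was true of no other of the 40. Without the first of these columns the log2 ratio was 0.79 (adjusted p = 0.14). The call also ended with limma-voom (log2 ratio 0.85, adjusted p = 0.15) and with the 4 pools as samples (log2 ratio 1.36, adjusted p = 0.051). Csf1r passed the filter on low counts through its IP columns alone, where it is high, so that its test is not independent of the filter.

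In IP without e5'UTR, Csf1r stood apart from input by a wide margin, 62 against 4 counts (ratio 5.89, interval 2.19 to 22.3), and the log2 ratio was 2.50 ± 0.71 (adjusted p = 0.003). With e5'UTR the counts were 29 against 9 (ratio 1.13, 0.519 to 2.7), and the log2 ratio of 0.17 ± 0.67 did not pass (adjusted p = 0.84). The difference between the treatments was itself tested and did not pass with all columns (interaction −2.33 ± 1.07, adjusted p = 0.28). It did without that first column (−3.65, adjusted p = 0.018), which was singled out by its values. Of the 12 fits that each left out 1 column, only this 1 passed (−3.65 to −1.95, adjusted p up to 0.49).

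Tyrobp had 33, 41 and 43 counts in IP with e5'UTR and 34, 39 and 41 in IP without it, against 30, 24 and 32 in input with e5'UTR and 27, 32 and 22 in input without it. In CPM every input column was above every IP column. The pools were at 19.3 and 20.4 CPM in IP against 40.7 and 38.1 CPM in input (log2 ratio −0.98 ± 0.14, adjusted p = 4.9e-07).

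Of the lysosomal pair, Ctss was lower in IP and Lyz2 only just. Ctss had 21, 16 and 23 and then 24, 13 and 21 counts in the IP columns with and without e5'UTR, against 19, 15 and 17 and then 15, 15 and 9 counts in input. In CPM 1 IP column (12.9) just passed 1 input column (12.8). Its pools stood at 9.91 and 10.4 CPM in IP against 24.1 and 18.4 CPM in input (log2 ratio −1.05 ± 0.21, adjusted p = 6.1e-05). Lyz2, the gene with the most counts among the 10, had 87, 94 and 86 and then 67, 71 and 74 counts in IP, against 41, 39 and 31 and then 35, 35 and 39 counts in input. In CPM the highest IP column (46.5) was above the lowest input column (43.7). The pools were at 44.1 CPM (39 to 49.7) and 37.9 CPM (33 to 43.4) in IP against 52.5 CPM (43.2 to 63.2) and 51.3 CPM (42.1 to 61.9) in input. Its log2 ratio of −0.34 ± 0.11 passed the test (adjusted p = 0.0068), and lost the call with DESeq2's size factors (−0.24, adjusted p = 0.057), with DESeq2 itself (adjusted p = 0.12), with the 4 pools as samples (−0.33, adjusted p = 0.084), without a filter (−0.14, adjusted p = 0.32) and without the first column of IP shGpr151 (−0.25, adjusted p = 0.057). Lyz1, a close relative of Lyz2 in sequence, had no row under its symbol, so a split of reads between them by the authors' counting cannot be checked.

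**Figure D2:**
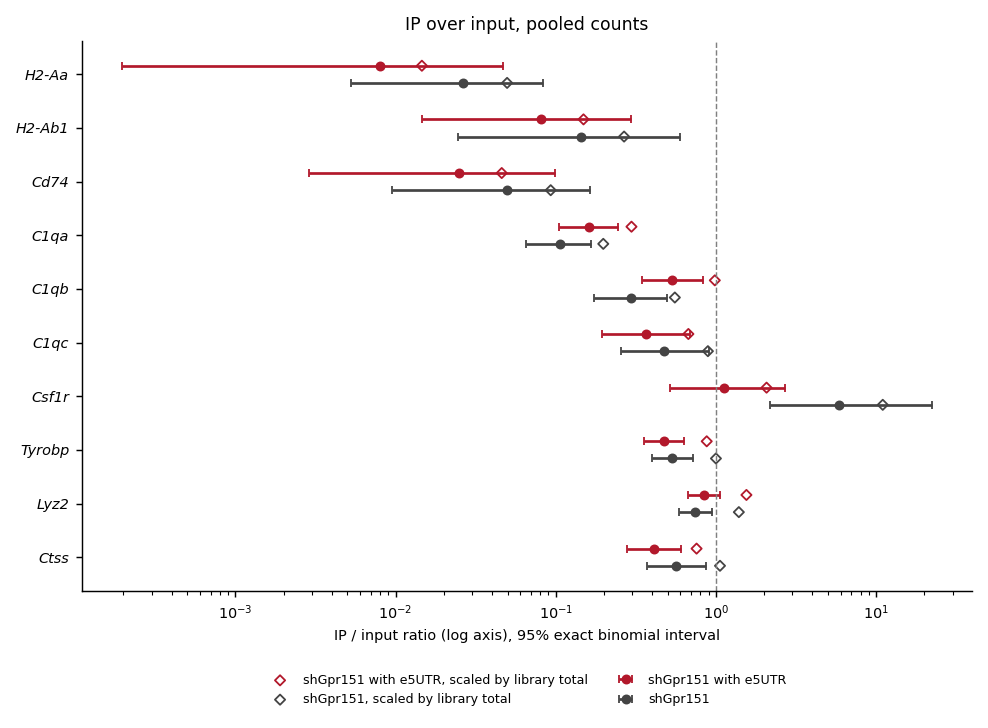
IP over input ratios of pooled counts for the 10 genes (rows) on a log axis, within shGpr151 with e5'UTR and within shGpr151, where filled points are on the TMM scale with 95% exact binomial intervals and open diamonds use the library total. H2-Aa, Cd74 and C1qa lie far left of 1 on both scales, and Csf1r lies to the right of 1 for shGpr151 on both.

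Of the 10 genes, 8 passed the filter on low counts and all 8 passed the test of IP against input, 7 lower and 1 higher, where 76.6% of the 8085 genes tested passed, 38% lower and 38.7% higher. Their median log2 ratio was −1.15, beside 0.10 for all genes tested. The filter asked for at least 8.45 CPM of the library total in 3 columns. H2-Aa, C1qa and C1qc met it in input columns alone and Csf1r in IP columns alone, so 4 of the 8 were admitted by the fraction in which they are high, and these counts are a description. Within shGpr151 with e5'UTR, 6 of the 8 passed, all lower (67.1% of all genes passed, 34.6% lower), the others being Csf1r and Lyz2. Within shGpr151, 7 of the 8 passed, 6 lower and Csf1r higher (66.9% of all genes, 35.8% lower and 31.1% higher), the exception being C1qc at −1.06 ± 0.49 (adjusted p = 0.061). Several calls within a treatment were fragile. C1qc passed within shGpr151 without the column of input that held 1 count (−1.56, adjusted p = 0.0032). Within shGpr151, Lyz2 lost its call when any of 7 columns was left out (adjusted p 0.084 to 0.17) and Ctss when any of 3 was (0.098 to 0.17), and both lost it with no filter and with DESeq2. With e5'UTR, C1qb lost its call with no filter, with DESeq2 and without either of 2 columns (0.052 to 0.062), and C1qc without 1 column (0.069).

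These directions rest on the scale in part. Scaling by library total in place of TMM moved the median log2 ratio of all genes from 0.10 to 0.99, and the genes called higher from 3125 to 5205 and those called lower from 3069 to 1984. On that scale H2-Aa (−4.85) and C1qa (−2.03) still passed as lower, Csf1r passed as higher (2.20), and Lyz2 reversed and passed as higher (0.55, adjusted p = 3.8e-05). C1qb, C1qc, Ctss and Tyrobp no longer passed. Because a scale factor moves all genes alike, the distance from the median gene is nearly the same on every scale by construction, and the TMM values give it as −0.44 for Lyz2, −1.08 for Tyrobp, −1.15 for Ctss, −1.34 for C1qc, −1.42 for C1qb, −3.02 for C1qa, −5.77 for H2-Aa and 1.23 for Csf1r.

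The make-up of the 10 genes' counts within a pool needs no scaling at all. The class II genes made up 1.01% (0.373% to 2.19%) of these counts in IP with e5'UTR and 1.69% (0.775% to 3.18%) in IP without it, against 17.9% (14.5% to 21.6%) in input with e5'UTR and 16.3% (13.1% to 20.1%) in input without it. The C1q genes made up 19.1% and 14.6% in IP against 28.2% and 32.2% in input. Lyz2 and Ctss together made up 55.2% and 50.7% in IP against 34% and 32.7% in input. Csf1r and Tyrobp made up 24.7% and 33% in IP against 20% and 18.8% in input. The IP intervals of the class II and C1q shares lie below, and that of the Lyz2 and Ctss share above, their input intervals in both treatments. Lyz2 carried that pair, with 45.1% and 39.8% in IP against 23.3% and 24.1% in input, while Ctss had 10.1% and 10.9% in IP against 10.7% and 8.61% in input.

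**Figure D3:**
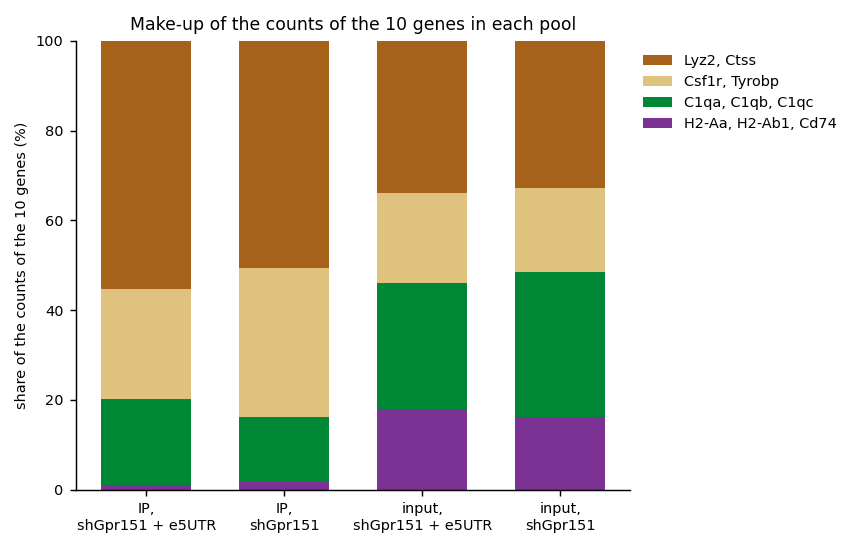
Share in percent (y axis) of the pooled counts of the 10 genes that fell to each role in the 4 pools (x axis), with pool totals of 592, 533, 476 and 453 counts from left to right. The class II share is 1.01% and 1.69% in the IP pools and 17.9% and 16.3% in the input pools.

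Other genes of the class II pathway were mixed. Of 17 genes on the list 9 had a row and 3 were tested, of which 2 were higher and none lower in IP, with a median log2 ratio of 0.90 (3 higher and a median of 1.79 by library total). Lgmn, an endosomal protease that acts on the invariant chain, rose to 55.4 CPM in IP, against 29.7 CPM in input (0.90 ± 0.13, adjusted p = 6e-07). Rfxap, a subunit of the RFX complex of class II promoters, had 69 counts in IP and 6 in input (2.06 ± 0.53, adjusted p = 0.0011). With so few input counts Rfxap could pass the filter only through its IP columns, where it is high. Its test is thus not independent of the filter. Ifi30, a thiol reductase of the endosome, had a log2 ratio of 0.01 ± 0.33 (adjusted p = 0.98). H2-DMa, a chain of the peptide loader H2-DM, did not pass the filter and had a ratio of 0.96 (0.579 to 1.65). Of the 6 genes with a row that were not tested, 5 had a TMM-scaled IP over input ratio below 1, with a median of 0.779 (2 below 1, median 1.45, by library total). The lowest of these, named after its values were seen, was H2-DMb1, another chain of H2-DM, with 0 and 8 counts in the IP pools with and without e5'UTR against 5 and 7 in the input pools (ratio 0.243). H2-Eb1, likewise named afterwards, is another class II beta chain, with 16 counts in IP and 11 in input (ratio 0.53), and its reads may be shared with its relatives. The list as a whole summed to between 73.6 and 85.8 CPM in the IP columns, against 45 to 69.7 CPM in the input columns, and Lgmn alone held 645 of the IP counts.

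The other macrophage genes were mixed. Of 36 on the list 27 had a row and 10 were tested, of which 4 were higher and 4 lower in IP, with a median log2 ratio of −0.17 (5 higher and 1 lower, median 0.71, by library total). Lgals3, the lectin galectin-3, was higher (1.30 ± 0.05, adjusted p = 3.3e-19). So were Coro1a, an actin regulator of leukocytes (2.18 ± 0.15), Gpnmb, a glycoprotein of lysosome-rich cells (1.91 ± 0.20), and Lcp1, an actin-bundling protein (1.32 ± 0.32). Lcp1, with 8 and 11 counts in the input pools, could not have passed the filter without its IP columns, where it is high. Pf4, a chemokine, was lower (−1.61 ± 0.27, adjusted p = 5.1e-06). Cyba, a subunit of the phagocyte oxidase (−0.95 ± 0.12), Ucp2, a mitochondrial carrier (−0.81 ± 0.19), and Fcer1g, an adaptor of Fc receptors akin to Tyrobp (−0.77 ± 0.15), were also lower by TMM. By library total the ratios of Cyba, Ucp2 and Fcer1g were 0.97 (0.821 to 1.15), 1.06 (0.836 to 1.34) and 1.09 (0.881 to 1.36). Each interval includes 1, so no difference in either direction was seen for these genes on that scale.

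Several defining macrophage genes had almost no IP counts. Mrc1, the mannose receptor, had 0 counts in both IP pools against 42 in the input pools, F13a1 had 0 against 17, Cd163 had 1 against 20 and Cx3cr1 had 5 against 29. These genes were picked out after their values were seen and none passed the filter. Other macrophage genes were not scarce in IP. Cd68 had 100 counts in the IP pools against 32 in the input pools (edgeR, 0.13 ± 0.32, adjusted p = 0.72). Cd52 had 68 against 36 (−0.46 ± 0.32, adjusted p = 0.18). Among untested genes, Trem2 had 25 against 19 counts (ratio 0.479) and Itgam 14 against 7 (0.728). Of all 17 untested genes of the list, 15 had a TMM-scaled IP over input ratio below 1, with a median of 0.218, and 13 were below 1 by library total (median 0.406). The other two by TMM were Mpeg1 (36 against 12 counts, ratio 1.09) and C3ar1 (26 against 9 counts, ratio 1.05). The summed level of the 27 genes was 676 to 751 CPM in IP columns against 406 to 508 CPM in input columns, and Lgals3 alone held 5809 of the IP counts. The part of Lgals3, or of expression of such genes outside macrophages, in these sums was not tested.

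Among ligands of the Csf1r receptor the directions differed. Csf1 was higher in IP, 36.6 CPM against 15.1 CPM in input (1.26 ± 0.16, adjusted p = 6.8e-08), and Il34 was lower, 13.3 CPM against 34.9 CPM (−1.37 ± 0.19, adjusted p = 2.7e-07). These 2 were the members of a list of 9 with a row.

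Complement genes other than C1q had 2 higher and 3 lower of 6 tested, and 4 higher and 1 lower by library total. Clu, an inhibitor of the terminal pathway, was higher (2.02 ± 0.12, adjusted p = 5.8e-15), as was C1qbp, a mitochondrial protein named for its binding to C1q (1.29 ± 0.18). Cd59a, another terminal inhibitor, was lower by TMM (−0.50 ± 0.07), with a ratio of 1.32 by library total, and Serping1, the C1 inhibitor, did not pass (−0.31 ± 0.24, adjusted p = 0.24).

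Cathepsins and cystatins other than Ctss had 6 higher and 2 lower of 9 tested, with a median log2 ratio of 0.87, and 8 higher and 1 lower by library total. Ctsb and Ctsd, the main lysosomal cathepsins of many cells, were higher (1.63 ± 0.04 and 1.46 ± 0.04), as was the inhibitor Cstb (0.87 ± 0.02). Ctsl, like Ctss an invariant-chain protease in some cells, was lower (−1.20 ± 0.02, adjusted p = 3.2e-26).

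MHC class I genes, which most cells express, had 2 higher and 2 lower of 6 tested and a median of −0.21, and 4 higher and 1 lower by library total (median 0.67). H2-D1, a classical heavy chain, had 0.32 ± 0.09 (adjusted p = 0.0025) and H2-K1, another, −0.08 ± 0.15 (adjusted p = 0.65). B2m, the light chain, was lower by TMM (−0.51 ± 0.04) with a ratio of 1.32 by library total, and H2-T23, a nonclassical heavy chain, was lower on both scales (−2.58 ± 0.11). Class I heavy chains resemble each other closely, and how the counting divided their reads is unknown.

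**Figure D4:**
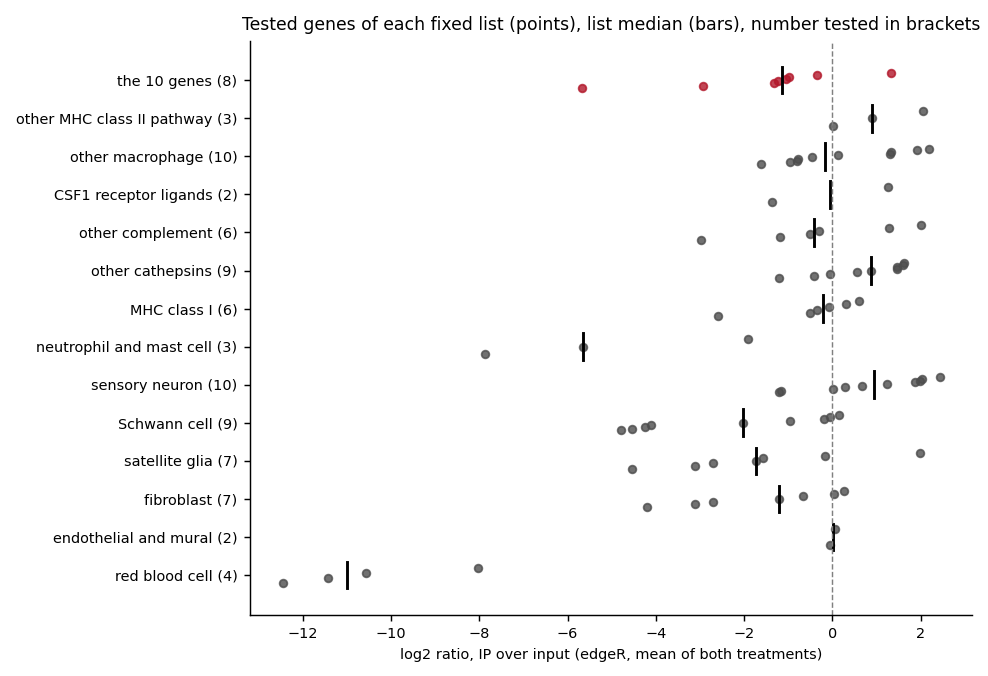
Log2 ratios of IP over input (x axis, edgeR, TMM scale, mean of both treatments) for every tested gene of each list (rows, with the number tested in brackets), where points are genes and bars list medians. The 10 genes, of which 8 were tested, have a median of −1.15 and other macrophage genes −0.17, while the red blood cell genes lie farthest left.

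Most marker lists of other cell types were lower in IP too, on both scales. Neutrophil and mast cell genes had 3 lower of 3 tested (median −5.64), with S100a9, a calprotectin chain, at 2 counts in the IP pools and 197 in the input pools. S100a8, its partner, was lower by less (399 against 553 counts, −1.92 ± 0.09). Red blood cell genes had 4 lower of 4. S100a9, Camp and these red blood cell genes had too few IP counts to pass the filter without their input columns, where they are high. Their calls are therefore a description. Schwann cell genes had 6 lower of 9 (5 lower and 3 higher by library total) and satellite glia genes 5 lower and 1 higher of 7 (5 and 2). Fibroblast genes had 5 lower of 7 (4 lower and 2 higher by library total), and endothelial and mural genes had none called of 2 (both higher by library total). Sensory neuron genes had 7 higher and 2 lower of 10 (median 0.95), with Prph, a neuronal intermediate filament, at 2.03 ± 0.04. The 2 lower, named after their values were seen, were Snap25 (−1.17 ± 0.07) and Rtn1 (−1.21 ± 0.05). No T cell, B cell or NK cell gene was tested. Of these Igkc, the antibody kappa chain, had 0 counts in the IP pools and 20 in the input pools, and Trbc2, a T cell receptor chain, 38 and 4. The part of these cells in the levels of the 10 genes was not tested, since a bulk count does not say which cell it came from.

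Genes with the most similar profile over the 4 pools were sought among 6794 genes with at least 100 counts, by the root mean square difference of centred log2 CPM from the mean profile of the 8 tested genes. The nearest were 1500004A13Rik (difference 0.0286), Rbms3 (0.0303), Gm13421 (0.036), Gm10602 (0.0433) and Prkx (0.0459). Prkx, a protein kinase gene, had 477 and 517 counts in the IP pools against 525 and 479 in the input pools, and a log2 ratio of −1.47 ± 0.07. The likeness rests on 4 pools, and the 8 genes it starts from differ widely among themselves.

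The second comparison, e5'UTR against shGpr151 alone, asks what the added AAV-e5'UTR did to these RNAs. With 1 pool per treatment it has no replicate check. In IP none of the 8 tested genes passed, where 10.9% of all 8085 genes did (edgeR), 4.69% higher and 6.25% lower. At an unadjusted p under 0.05 there were 2, Csf1r and C1qb. Of the other tools, limma-voom called Csf1r alone. DESeq2 gave no adjusted p for Csf1r, C1qb, C1qc and H2-Aa, so it could not decide on them, and it called none of the rest. The 10 genes together had 97.7 CPM in IP with e5'UTR and 95.4 CPM in IP without it, a ratio of 1.02 (0.91 to 1.15).

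Csf1r had the lowest unadjusted p of the 8 in IP, 0.0076, with 21, 6 and 2 counts with e5'UTR against 18, 22 and 22 counts without it. The groups overlapped only through the first column with e5'UTR. The ratio was 0.431 (0.268 to 0.681) and the log2 ratio −1.20 ± 0.41 (adjusted p = 0.062). Without that column, which was singled out by its values and runs against the difference, the log2 ratio was −2.52 (adjusted p = 0.00056). Of the 12 fits that each left out 1 column, only this 1 passed (log2 ratios −2.52 to −0.82, adjusted p up to 0.22). With all columns it passed with DESeq2's size factors (−1.27, adjusted p = 0.046) and with limma-voom (−1.70, adjusted p = 0.0098). C1qb went the other way, with 13, 23 and 19 counts with e5'UTR against 7, 8 and 13 without it. In CPM the groups overlapped, since the lowest column with e5'UTR (6.45) was below the highest without it (6.96). Its ratio was 1.81 (1.13 to 2.97) and its log2 ratio 0.85 ± 0.32 (adjusted p = 0.09).

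For the other tested genes in IP the intervals show how far a change could have gone unseen. The best measured was Lyz2, with a ratio of 1.16 (0.967 to 1.4), then Tyrobp with 0.947 (0.725 to 1.24) and Ctss with 0.954 (0.654 to 1.39). C1qa had 1.29 (0.751 to 2.25) and C1qc 0.849 (0.46 to 1.56). The class II genes, with 6 counts with e5'UTR and 9 without it, had a ratio of 0.615 (0.18 to 1.93), and no difference could be seen at this depth.

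In input, none of the 8 passed, where 0.198% of all genes did, and none had an unadjusted p under 0.05, nor did any pass with DESeq2 or limma-voom. The 10 genes together had 225 CPM with e5'UTR and 213 CPM without it (ratio 1.06, 0.926 to 1.2). The class II genes had 40.2 CPM with e5'UTR and 34.8 CPM without it (1.15, 0.835 to 1.6), and the C1q genes 63.4 CPM with e5'UTR and 68.7 CPM without it (0.922, 0.724 to 1.17). Csf1r, with 9 counts with e5'UTR and 4 without it, had an interval of 0.631 to 10. Of the interaction of fraction and e5'UTR, none of the 8 passed, where 5.11% of all genes did (1.57% positive and 3.54% negative). Csf1r alone had an unadjusted p under 0.05. The limma-voom fit called none, and DESeq2 gave an adjusted p for Lyz2 alone, which it did not call.

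**Figure D5:**
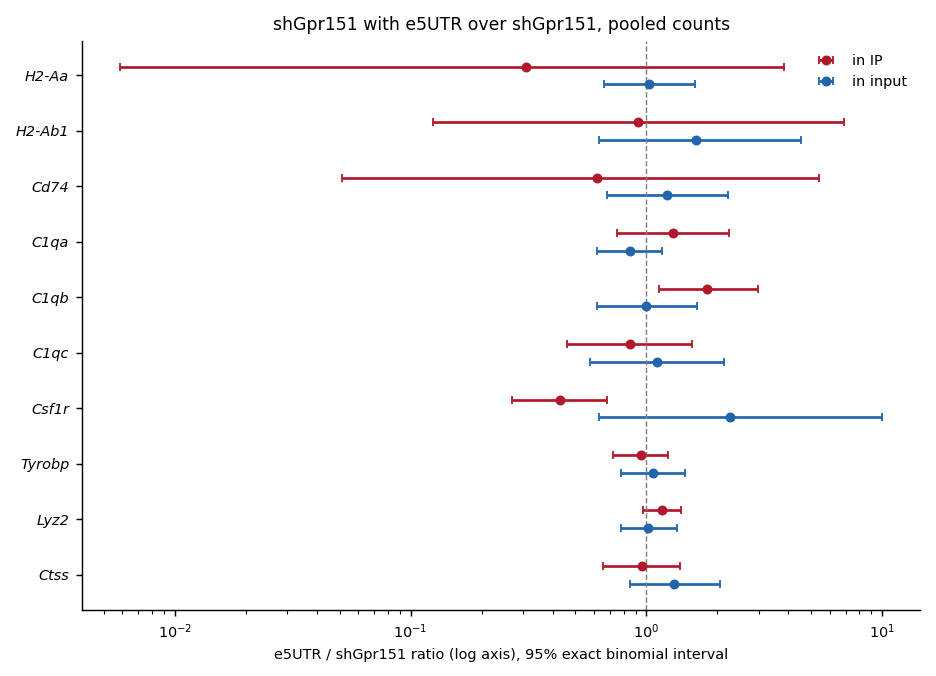
Ratios of pooled counts, shGpr151 with e5'UTR over shGpr151 (x axis, log scale, TMM-scaled), for the 10 genes (rows) in IP and in input, with 95% exact binomial intervals. Only the IP intervals of C1qb (1.13 to 2.97) and Csf1r (0.268 to 0.681) leave out a ratio of 1.

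Other genes were described for e5'UTR in the same way. Of the tested genes of the class II pathway (3), of the other macrophage list (10) and of the Csf1r ligands (2), none passed for e5'UTR in IP or in input. Lgmn had 57.5 CPM in IP with e5'UTR and 53.2 CPM without it, and Lgals3 507 CPM and 490 CPM. In IP, where 10.9% of all genes passed (4.69% higher and 6.25% lower), 4 of 9 cathepsin and cystatin genes did, 3 higher and 1 lower. The steps were small: Cstb at 0.11 ± 0.03 (adjusted p = 0.0056), Ctsl at 0.11 ± 0.03 (adjusted p = 0.028) and Ctsd at −0.18 ± 0.03 (adjusted p = 0.00058). Of 6 complement genes 1 was higher. Among class I genes, of which 1 of 6 passed, B2m was higher in IP with e5'UTR (0.30 ± 0.04, adjusted p = 1.2e-05), with 2495 counts there and 1866 in IP without it. Lists of other cell types had calls too. Satellite glia genes had 2 higher and 1 lower of 7. Sensory neuron genes had 2 higher of 10, Schwann cell genes 1 higher of 9 and fibroblast genes 1 higher of 7.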

How the data were processed

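Per the labels' protocols, a Nanopore cDNA-PCR kit with barcodes was used. The authors deposited estimated counts (whole numbers, 1 row a gene) in 12 columns, each matched by name to its sample. Tools in the submitters' processing notes are Salmon and minimap2, and builds are mm39 and GRCm39. Counting settings, strand, annotation and use of molecular identifiers are not given there. Symbols matched 13191 of 14675 identifiers (89.9%), and the lowest gene total was 13 counts. RefSeq annotation of another build (GRCm38.p6) gave chromosomes and promoter windows, and no member overlaps another gene with a row.

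The main test was edgeR 4.0.16 (R 4.3.3), quasi-likelihood, with TMM scaling (factors 0.7252 to 1.379), filterByExpr (minimum count 10, minimum total 15; 8085 genes), 1 model of the 4 group means, and Benjamini-Hochberg adjustment over all tested genes at 0.05. The coefficient of variation between columns beyond counting error, the square root of the common dispersion, was 2.577%. The fit was tested on simulated data. Where no treatment is named, IP and input are each averaged over both. Pool levels have exact Poisson intervals, and ratios and shares exact binomial (Clopper-Pearson) intervals, at 95%. Columns of a gene were compared with an exact multinomial test, adjusted over 40 checks. A pool count of 3 or less was treated as at the floor.

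Alternatives were library total, DESeq2's size factors, no filter, a mean count of at least 10, DESeq2 1.42.0, limma-voom (limma 3.58.1), a replicate block, each column left out, and the 4 pools as samples. Replicate numbers were not used as pairs in the main test. Deviations of the 18 same-numbered pairs correlated at −0.063 to 0.040, but columns that differ by little more than counting error cannot show whether samples were paired. The members and gene lists were chosen with earlier results of these data known. Named genes are all 10 members, up to 4 genes of highest total count from each other list, and every called gene of the class II pathway, macrophage and Csf1r ligand lists.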

Additional observations from a re-analysis of the deposited data

How the results depend on the processing

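Of the members' log2 ratios under the alternatives, 820 kept their direction and side of the threshold, 36 lost the call, 5 gained it and 5 reversed, all of these by library total: Lyz2 at 0.55, 0.47 within shGpr151 and 0.63 with e5'UTR, and, within shGpr151, Ctss at 0.08 and Tyrobp at 0.00. In this tally a ratio for which DESeq2 gave no adjusted p was taken as not called. By library total 4 members passed and the summed ratio was 0.819. With a mean count of at least 10, 5 passed, since C1qc, Csf1r and H2-Aa were then not tested. Leaving out columns gave 6 to 9 members called and summed ratios of 0.435 to 0.451. The genes called then numbered 6040 to 6526 for IP against input, 5179 to 5778 with e5'UTR, 5231 to 5784 within shGpr151, 708 to 886 for e5'UTR in IP, 10 to 19 for e5'UTR in input (10 without column 1 of input shGpr151) and 337 to 418 for the interaction. For e5'UTR in IP, 42.9% of calls were higher by TMM, 20.5% with DESeq2's size factors and 14.2% with DESeq2. For the interaction these shares were 30.8%, 13.3% and 9.7%. With the replicate block 6148 genes passed for IP against input, and no call of a member changed. With the 4 pools as samples, the spread beyond counting error between pools of a fraction was 10.39%. In that fit, whose own filter kept 11343 genes, 7 members passed. Csf1r and Lyz2 lost the call, and the 7 include Cd74 or H2-Ab1, which the main fit did not test. Depth limits the class II genes in IP, whose pooled counts are at the floor of 3, and Csf1r in input, with 9 counts with e5'UTR and 4 without it.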
